A study of Mus musculus with 18 samples.

Results

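The 10 genes described here encode the enzymes that make leukotrienes and prostanoids, together with 1 helper protein: Ltc4s, Alox5, Alox5ap, Lta4h, Ptgs1, Ptgs2, Ptgis, Ptgds, Ptges and Tbxas1. They were taken from the deposited tables by symbol, out of 30072 genes. The family was chosen because Ltc4s rose after irradiation, so every value of Ltc4s is given as a description with no test, and the 9 other genes were tested. All 10 genes had at least 0.23 CPM (counts scaled to a common library size) in at least 6 mice, as did 15054 of the 30072 genes, and adjusted P values were computed over those 15054 genes.

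RNA was sequenced from the hearts of 18 CD-1 mice, males and females of at least 8 weeks of age, with 6 mice in each of 3 groups. The 2-week and 6-week groups received a single dose of 25 Gy to the whole heart under isoflurane anaesthesia and were collected 2 or 6 weeks post-IR. Sham controls were littermates given anaesthesia and imaging but no dose. The labels do not give the sex or litter of a mouse, or the time after sham treatment of a control. The labels name the ventricular septum as the tissue, whereas the methods speak of ventricular tissue.

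Phospholipases free arachidonic acid from membranes, and its fate then depends on the enzymes a cell holds. Alox5, a lipoxygenase, works with Alox5ap at the nuclear membrane to make leukotriene A4, which Lta4h converts to leukotriene B4, an attractant of leukocytes, and Ltc4s converts to leukotriene C4, the parent of the cysteinyl leukotrienes that constrict smooth muscle and open vessel walls. The cyclooxygenases Ptgs1 and Ptgs2 make prostaglandin H2, from which Ptgis makes prostacyclin, Tbxas1 thromboxane A2, Ptgds prostaglandin D2 and Ptges prostaglandin E2. Leukotrienes are made mainly by myeloid cells and mast cells, thromboxane by platelets and macrophages, and prostacyclin by vessel walls.

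Total estimated counts ranged from 12202905 to 15501019 in controls, 12963022 to 14941625 at 2 weeks and 11522987 to 14845188 at 6 weeks, and 3 counts correspond to between 0.194 and 0.26 CPM. Cardiomyocyte markers were abundant in every library, with a summed level of 5 markers between 18831 and 28902 TPM (transcript abundance corrected for length). The library of the fourth control mouse stood apart. Its 5 fibroblast markers summed to 806.4 TPM and its 8 macrophage markers to 357.5 TPM, against 100.5 to 193.0 TPM for macrophage markers in the 5 other controls, and its cardiomyocyte sum was the lowest of the 18 mice.

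Promoter sequences of Ltc4s and Tbxas1 are shown because these were the members with the largest increases in level at both times. Each window runs from 250 bases before to 50 bases after the gene start that RefSeq gives on GRCm38.p6, and such a window was found for 8 of the 10 members. The Ltc4s window lies at chr11:50238483-50238782 on the minus strand and that of Tbxas1 at chr6:38918736-38919035 on the plus strand. The Tbxas1 window lies inside the gene as given below, which starts at 38875404, because RefSeq and GENCODE place this start differently. The windows of Ptges and Ptgds also lie inside the gene bounds given below. Capitals mark matches on either strand to the motifs named after the sequences.
Ltc4s: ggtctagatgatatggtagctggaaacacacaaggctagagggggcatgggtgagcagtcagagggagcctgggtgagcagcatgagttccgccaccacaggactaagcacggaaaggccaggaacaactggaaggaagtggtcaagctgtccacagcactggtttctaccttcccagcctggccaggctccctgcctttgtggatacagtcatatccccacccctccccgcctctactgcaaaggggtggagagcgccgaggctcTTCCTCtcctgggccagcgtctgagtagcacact
Tbxas1: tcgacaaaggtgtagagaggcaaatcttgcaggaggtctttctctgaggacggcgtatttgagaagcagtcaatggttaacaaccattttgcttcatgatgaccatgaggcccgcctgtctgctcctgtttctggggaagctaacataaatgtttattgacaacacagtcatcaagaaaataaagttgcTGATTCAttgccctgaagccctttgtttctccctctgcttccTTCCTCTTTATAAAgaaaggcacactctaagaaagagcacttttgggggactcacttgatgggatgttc

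In these windows, 5 motifs were searched on both strands: GGGCGG (GC box), TATAAA (a core promoter box), CCAAT (bound by NF-Y), GAGGAA (a purine-rich core of ETS factors such as the myeloid regulator PU.1) and TGANTCA (AP-1). GAGGAA occurred once in each of the Ltc4s and Tbxas1 windows, in both on the opposite strand, and in 7 of the 8 member windows, against 28.3% of 32851 RefSeq windows of the same length. The Tbxas1 window also held TGANTCA once, present in 7.81% of all windows, and TATAAA on both strands at 1 overlapping place, present in 13.6%. TGANTCA occurred in 2 member windows, those of Tbxas1 and Ptgds, and TATAAA only in that of Tbxas1. GGGCGG, present in 35.7% of all windows, and CCAAT, present in 37.4%, occurred in neither printed sequence. Among the 8 member windows they occurred in 3 and 1. The GC content was 58.7% for Ltc4s and 44.3% for Tbxas1, against a median of 52.7% over all windows.

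Ltc4s transcript levels were higher in every irradiated mouse than in any control mouse. Ltc4s (ENSMUSG00000020377, chromosome 11, 50236461 to 50238616, minus strand) had a lowest, median and highest level of 2.27, 2.75 and 4.17 CPM in controls. The same values were 9.22, 14.2 and 19.9 CPM at 2 weeks and 8.75, 9.33 and 10.3 CPM at 6 weeks. The means were 3.03 ± 0.734 (SD, n = 6), 14.4 ± 3.45 (SD, n = 6) and 9.42 ± 0.652 CPM (SD, n = 6). The fitted fold change against controls was 4.68 at 2 weeks (log2 2.23, SE 0.168, 95% interval 1.87 to 2.58) and 3.06 at 6 weeks (log2 1.61, SE 0.172, 95% interval 1.25 to 1.98). Between 2 and 6 weeks the level was 1.53-fold lower (log2 -0.61, SE 0.148, 95% interval -0.92 to -0.30). At 2 weeks, 5 of the 6 mice had more than any mouse at 6 weeks, and the mouse at 9.22 CPM lay within the 6-week range. Without the fourth control mouse the log2 fold changes against controls were 2.29 and 1.68. Of the 1014 exon bases of Ltc4s, 268 are shared with an antisense gene that the deposited table does not list, and the sources used here do not say whether strand was used in quantification. In bulk tissue, fewer cells of a type and less RNA per cell cannot be told apart, and this holds for every level given here.

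**Figure D1:**
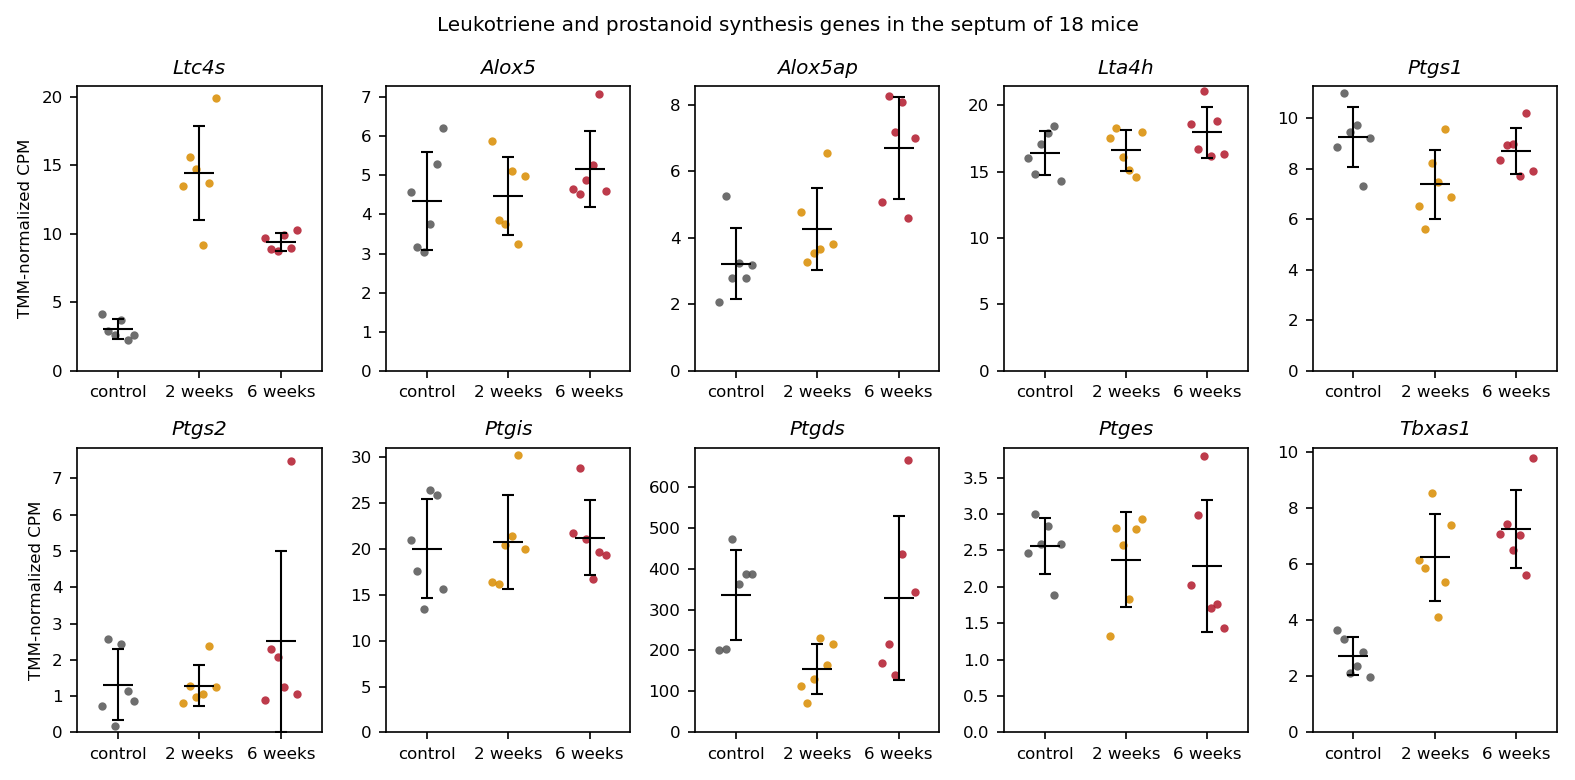
Level of each of the 10 genes in every mouse, as TMM-normalised CPM on an axis that starts at 0; points are mice, bars are means with the SD over 6 mice. Every irradiated mouse lies above every control for Ltc4s (8.75 CPM or more against 4.17 or less) and Tbxas1 (4.12 CPM or more against 3.65 or less), and the groups overlap for the 8 other genes.

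Of the 9 other genes, 1 rose, none fell and 8 did not pass the test at 2 weeks against controls, while over all genes tested 3.09% were higher and 1.93% lower (edgeR quasi-likelihood F test, two-sided, Benjamini-Hochberg adjusted P under 0.05). At 6 weeks, 2 of the 9 rose and none fell, against 13.5% and 11.5% of all genes. Between 2 and 6 weeks none of the 9 passed the test with edgeR, against 3.31% of all genes higher and 2.01% lower; 2 of the 9 had an unadjusted P under 0.05, and DESeq2 called 1. The median log2 fold change of the 9 genes was 0.01 at 2 weeks, 0.13 at 6 weeks and 0.22 between the times, beside 0, -0.02 and 0 over all genes. Groups did not overlap for 1 of the 9, Tbxas1, which was above the controls at both times. Over all genes, the irradiated mice all lay above the controls for 1.96% of genes at 2 weeks and 5.8% at 6 weeks and all below for 1.28% and 3.43%, and between the irradiated groups the shares were 2.27% and 1.27%.

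Of the other genes of leukotriene synthesis, Alox5ap was higher at 6 weeks, and Alox5 and Lta4h did not pass the test at either time. Alox5ap (ENSMUSG00000060063, chromosome 5, 149264767 to 149288153, plus strand), which presents arachidonic acid to Alox5, had a lowest, median and highest level of 2.08, 2.99 and 5.25 CPM in controls, 3.29, 3.74 and 6.56 CPM at 2 weeks and 4.59, 7.1 and 8.26 CPM at 6 weeks. The second control mouse, at 5.25 CPM, overlapped with 2 mice of the 6-week group, and the 5 other controls, at 3.26 CPM or less, lay below all 6. The increase at 6 weeks was 2.09-fold (log2 1.06, SE 0.218, adjusted P = 0.0015, edgeR). At 2 weeks the log2 fold change was 0.42 with a 95% interval from -0.06 to 0.90 (adjusted P = 0.312, edgeR). With either TPM pseudocount the 2-week difference passed the test. The difference between 6 and 2 weeks was 0.64 (SE 0.207, adjusted P = 0.0777, edgeR), and without the fifth 2-week mouse it was 0.81 (adjusted P = 0.0326, edgeR). With all mice it passed with DESeq2 (adjusted P = 0.0449) and with library size only (adjusted P = 0.0324, edgeR). It also passed with voom quality weights and with either TPM pseudocount.

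Alox5 (ENSMUSG00000025701, chromosome 6, 116410077 to 116461178, minus strand) ranged from 3.05 to 6.21 CPM in controls (median 4.15), 3.25 to 5.87 at 2 weeks (median 4.42) and 4.51 to 7.08 at 6 weeks (median 4.77). Its log2 fold change was 0.04 at 2 weeks (95% interval -0.36 to 0.43, adjusted P = 0.934, edgeR) and 0.24 at 6 weeks (95% interval -0.15 to 0.63, adjusted P = 0.379). Lta4h (ENSMUSG00000015889, chromosome 10, 93453411 to 93484875, plus strand) ranged from 14.3 to 18.4 CPM in controls (median 16.6), 14.6 to 18.3 at 2 weeks (median 16.8) and 16.2 to 21.1 at 6 weeks (median 17.7). The 3 groups overlapped for both genes. Lta4h was measured more tightly, with a log2 fold change of 0.01 at 2 weeks (95% interval -0.17 to 0.20, adjusted P = 0.96, edgeR) and 0.13 at 6 weeks (95% interval -0.06 to 0.31, adjusted P = 0.323). With scaling to library size alone, under which all genes had a median of 0.243 on the log2 scale at 6 weeks in place of -0.019, both passed the test at 6 weeks, Alox5 at 0.50 (adjusted P = 0.0373) and Lta4h at 0.39 (adjusted P = 0.00483).

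The cyclooxygenases did not pass the test in any comparison. Ptgs1 (ENSMUSG00000047250, chromosome 2, 36230426 to 36252272, plus strand), the constitutive form, had a lowest, median and highest level of 7.33, 9.33 and 11 CPM in controls, then 5.61, 7.17 and 9.55 CPM at 2 weeks and 7.71, 8.65 and 10.2 at 6 weeks. The 2-week mice were low within overlapping ranges, with a log2 fold change of -0.32 (95% interval -0.58 to -0.06, adjusted P = 0.139, edgeR). Ptgs2 (ENSMUSG00000032487, chromosome 1, 150100031 to 150108227, plus strand), the inducible form, was sparse, with 2 to 35 estimated counts in controls, 11 to 36 at 2 weeks and 14 to 93 at 6 weeks. Its levels were 0.185, 0.998 and 2.58 CPM (lowest, median, highest) in controls, then 0.807, 1.15 and 2.39 CPM at 2 weeks and 0.895, 1.68 and 7.48 at 6 weeks. The value of 7.48 CPM came from 1 mouse, the fifth of the 6-week group, and the next highest of that group was at 2.29 CPM. The 95% intervals of its log2 fold changes, -1.27 to 1.18 at 2 weeks and -0.25 to 1.97 at 6 weeks, each include both a lower and a higher level than in controls (adjusted P = 0.98 and 0.263, edgeR).

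Of the 4 synthases that act on prostaglandin H2, Tbxas1 rose at both times. Tbxas1 (ENSMUSG00000029925, chromosome 6, 38875404 to 39084585, plus strand), the thromboxane synthase, had a lowest, median and highest level of 1.98, 2.62 and 3.65 CPM in controls, 4.12, 6.01 and 8.55 CPM at 2 weeks and 5.63, 7.07 and 9.78 CPM at 6 weeks. All 12 irradiated mice lay above all 6 controls. The fold change was 2.27 at 2 weeks (log2 1.18, SE 0.194, 95% interval 0.77 to 1.59, adjusted P = 0.00215, edgeR) and 2.64 at 6 weeks (log2 1.40, SE 0.192, 95% interval 1.0 to 1.80, adjusted P = 4.67e-05). The difference between 6 and 2 weeks was 0.22 with a 95% interval from -0.14 to 0.58 (adjusted P = 0.504, edgeR). Per length, as TPM, the fourth control mouse had 2.90 and lay within the 2-week range of 2.51 to 4.15, while the 5 other controls had 0.619 to 1.5. Without that mouse the log2 fold changes in CPM were 1.14 (adjusted P = 0.00453) and 1.35 (adjusted P = 0.000128). The Tbxas1 gene lies across the abundant gene Hipk2 on the other strand, with 0 exon bases shared. Hipk2 itself had log2 fold changes of -0.09 at 2 weeks (adjusted P = 0.416, edgeR) and -0.20 at 6 weeks (adjusted P = 0.019, edgeR). The antisense genes Gm42962 and 1700025N23Rik also overlap Tbxas1. The deposited table does not list them, and their shared exon bases are not given here.

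Ptgds, the lipocalin-type prostaglandin D2 synthase, varied widely between mice of a group and did not pass the edgeR test in any comparison. Ptgds (ENSMUSG00000015090, chromosome 2, 25466709 to 25470046, minus strand) had a lowest, median and highest level of 200.4, 374.5 and 473.3 CPM in controls, 72.7, 148.3 and 229.7 CPM at 2 weeks and 140.6, 279.4 and 665.9 CPM at 6 weeks. At 2 weeks, 4 of the 6 mice lay below every control. The log2 fold change at 2 weeks was -1.12 (SE 0.354, 95% interval -1.86 to -0.37), which did not pass the test (adjusted P = 0.0758, edgeR). Leaving out the fifth 6-week mouse, which had 665.9 CPM and enters only through the shared estimate of the spread, gave the same log2 fold change with an adjusted P of 0.0458, and DESeq2 called the 2-week difference at the same size (adjusted P = 0.0419). At 6 weeks against controls it was -0.03 (95% interval -0.76 to 0.70, adjusted P = 0.963), and between the times 1.08 (95% interval 0.34 to 1.83, adjusted P = 0.0804). Scaling to library size alone gave 1.17 between the times, which passed (adjusted P = 0.042, edgeR).

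Ptgis (ENSMUSG00000017969, chromosome 2, 167191805 to 167240604, minus strand), the prostacyclin synthase of vessel walls, ranged from 13.4 to 26.4 CPM in controls (median 19.3), 16.2 to 30.2 at 2 weeks (median 20.2) and 16.7 to 28.8 at 6 weeks (median 20.4). Its log2 fold changes were 0.05 (95% interval -0.32 to 0.43, adjusted P = 0.904, edgeR) and 0.08 (95% interval -0.29 to 0.46, adjusted P = 0.788). Ptges (ENSMUSG00000050737, chromosome 2, 30889471 to 30929863, minus strand), the inducible prostaglandin E2 synthase, ranged from 1.89 to 3.0 CPM in controls (median 2.59), 1.32 to 2.93 at 2 weeks (median 2.68) and 1.43 to 3.79 at 6 weeks (median 1.9). Its log2 fold changes were -0.11 (95% interval -0.60 to 0.38, adjusted P = 0.84, edgeR) and -0.16 (95% interval -0.66 to 0.33, adjusted P = 0.665). The groups overlapped for both genes in all 3 comparisons.

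**Figure D2:**
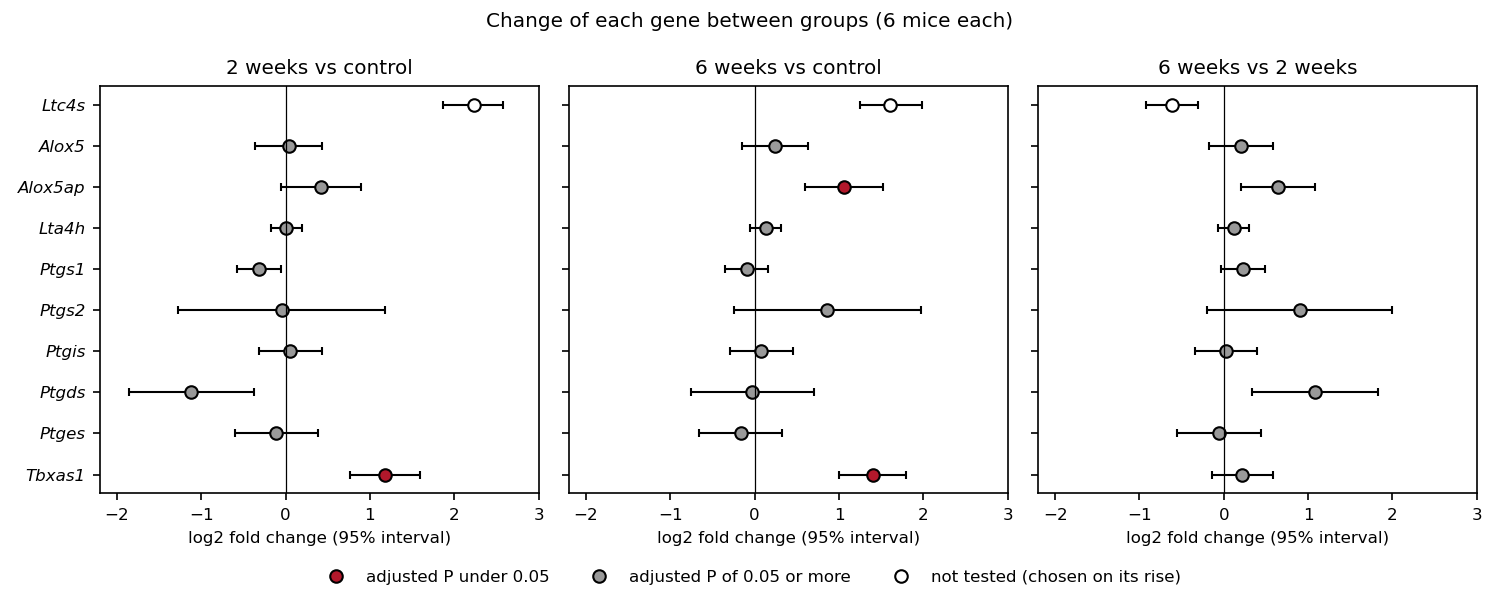
Fitted log2 fold change of each gene (horizontal axis) in the 3 comparisons, with 95% intervals from the edgeR model over 18 mice; red points have an adjusted P under 0.05, grey points do not, and Ltc4s, drawn open, was not tested. The intervals of Tbxas1 at both times and of Alox5ap at 6 weeks (0.60 to 1.52) lie above 0 and passed, while those of Ptgs2 are the widest.

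Compared per length, Ptgds was by far the most abundant member in every group and Ptgs2 the least. In controls the mean levels were 530.6 TPM for Ptgds, 9.75 for Ptgis, 8.01 for Lta4h, 6.42 for Ptgs1, 4.90 for Ltc4s, 4.35 for Alox5ap, 1.70 for Alox5, 1.40 for Tbxas1, 1.26 for Ptges and 0.353 for Ptgs2. In that order, neighbours had separate ranges only between Ptgds and Ptgis, between Alox5ap and Alox5, and between Ptges and Ptgs2. Ltc4s, the fifth most abundant of the 10 in controls at 4.90 ± 1.74 TPM (SD, n = 6), came after Ptgds alone at 2 weeks with 26.7 ± 6.80 TPM (SD, n = 6) and at 6 weeks with 19.6 ± 3.08 TPM (SD, n = 6). Its lowest 2-week value, 17.2 TPM, lay just under the highest of Ptgis, 17.3 TPM, so these neighbours overlapped, as they did at 6 weeks. At 2 weeks only Ptgds was separate from its neighbour, and at 6 weeks Ptgds and, between Lta4h and Ptgs1, 1 further pair.

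**Figure D3:**
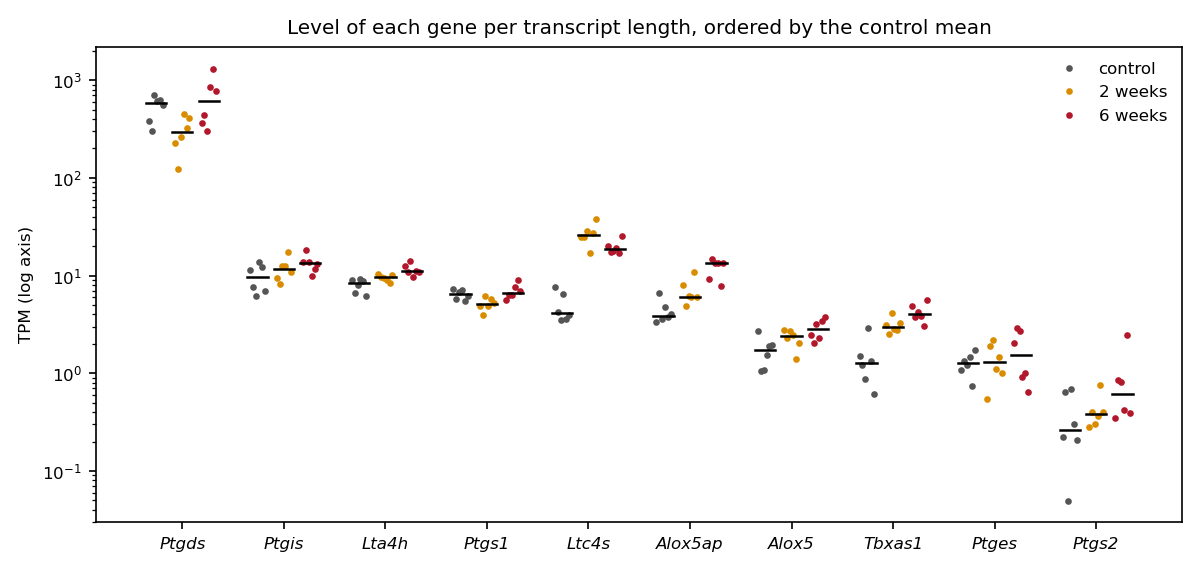
Level of each gene per length, as TPM on a log10 axis, in the 3 groups; points are mice and bars are medians. Ptgds stands above all others in each group, with a control mean of 530.6 TPM, and Ltc4s moves from a control mean of 4.90 TPM to 26.7 TPM at 2 weeks and 19.6 TPM at 6 weeks.

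The rest of the pathway was taken as a list of 49 genes, from phospholipases to receptors, of which 36 passed the filter on low values. At 2 weeks, 2 of the 36 rose and 2 fell; at 6 weeks, 5 rose and 6 fell; between the times none rose and 3 fell. Over all genes tested, 3.09% were higher and 1.93% lower at 2 weeks, 13.5% and 11.5% at 6 weeks, and 3.31% and 2.01% between the times, so the 6-week counts lay near the share of all genes. The split by direction depended on the scaling: at 6 weeks 12 rose and 2 fell with library size alone, and 14 rose and 1 fell with either TPM pseudocount, while at 2 weeks 4, 7 and 9 rose with library size alone, TPM + 1 and TPM + 0.1, and 2 fell in each. The medians of the 36 log2 fold changes were -0.05, -0.15 and 0.05. The 13 genes below the filter had at most 9 estimated counts in any mouse, among them Alox15 with 9, the prostaglandin D2 receptors Ptgdr and Ptgdr2 with 1 and 8, and Cysltr2, the second receptor for cysteinyl leukotrienes, with 3.

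All 3 leukotriene receptors that passed the filter were higher at 6 weeks, and 2 of them at 2 weeks, against 13.5% and 3.09% of all genes tested. Cysltr1, which binds the cysteinyl leukotrienes that derive from the product of Ltc4s, had 1.2, 1.7 and 4.72 CPM (lowest, median, highest) in controls, then 3.62, 4.0 and 4.25 CPM at 2 weeks and 4.23, 6.15 and 7.98 at 6 weeks. Its fold change at 6 weeks was 2.29 (log2 1.19, SE 0.255, adjusted P = 0.00199, edgeR), and at 2 weeks 1.53 (adjusted P = 0.20). With log2(TPM + 0.1) its 6-week difference was 1.90. Ltb4r2, the low-affinity receptor for leukotriene B4, had 3 to 6 estimated counts in each control, 9 to 27 at 2 weeks and 10 to 23 at 6 weeks. Its ranges did not overlap, from 0.227 to 0.431 CPM in controls against 0.589 to 1.98 and 0.804 to 1.46 CPM. Against controls it was higher by 1.73 on the log2 scale at 2 weeks (SE 0.335, adjusted P = 0.00617, edgeR) and 1.79 at 6 weeks (SE 0.332, adjusted P = 0.000649). Ltb4r1, the high-affinity receptor on leukocytes, was as sparse, with 3 to 9 estimated counts in controls, 8 to 20 at 2 weeks and 10 to 20 at 6 weeks, and its log2 fold changes were 1.29 (adjusted P = 0.0279, edgeR) and 1.43 (adjusted P = 0.00283). On the log2(TPM + 1) scale, which compresses low levels, the differences at 2 and 6 weeks were 0.51 and 0.63 for Ltb4r2 and 0.48 and 0.63 for Ltb4r1, each still called. The 2-week call of Ltb4r1 was lost, with adjusted P between 0.0516 and 0.062 and log2 fold changes between 1.14 and 1.25, when any 1 of 6 mice was left out, namely control mice 2, 3 and 4 and 2-week mice 1, 4 and 5.

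Of 7 phospholipases that passed the filter, 1 was lower at 2 weeks, 2 at 6 weeks and 2 between the times. None was called higher. Over all genes tested, 1.93%, 11.5% and 2.01% were lower. The medians of the 7 log2 fold changes were -0.06, -0.35 and 0.23, so the class did not move 1 way in all comparisons. Pla2g5, a secreted phospholipase, had 11.6, 14.9 and 24.7 CPM in controls (lowest, median, highest), 10.3, 14.4 and 24.3 at 2 weeks and 3.25, 5.58 and 10.2 at 6 weeks. The 6-week mice lay below all others, and the level was 2.57-fold lower than in controls (log2 -1.36, SE 0.256, adjusted P = 0.00073, edgeR) and 2.46-fold lower than at 2 weeks (log2 -1.30, SE 0.255, adjusted P = 0.00952). In TPM the 6-week and control ranges overlapped, and the log2(TPM + 1) difference from controls was -0.56 (adjusted P = 0.0194, limma). Pla2g2d, a secreted phospholipase of lymphoid dendritic cells and macrophages, was 2.59-fold lower at 2 weeks (log2 -1.37, adjusted P = 0.00613, edgeR), with 0.487 to 1.5 CPM against 1.73 to 3.61 in controls, and 1.77-fold lower at 6 weeks (log2 -0.82, adjusted P = 0.0207), a call that was lost with library size only and with TPM. Its 2-week difference on the log2(TPM + 1) scale was -0.51. Pla2g4e was lower at 6 than at 2 weeks (log2 -1.21, adjusted P = 0.0361, edgeR), with 1.13 to 1.94 CPM against 2.22 to 8.22. The 2-week mouse at 8.22 CPM stood apart from the rest. The call of Pla2g4e was lost when any 1 of 6 mice was left out, namely 2-week mice 1 and 2 and 6-week mice 1, 2, 3 and 6. Adjusted P was then between 0.0521 and 0.0851 (edgeR) and the log2 fold change between -1.27 and -0.80. The call was also lost with voom, the replicate block and TPM (-0.31 with log2(TPM + 1), adjusted P = 0.169, limma).

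Dpep2, a dipeptidase that converts leukotriene D4 to E4, was 2.35-fold higher at 6 weeks (log2 1.23, SE 0.382, adjusted P = 0.0234, edgeR), with 0.173, 0.816 and 3.19 CPM in controls (lowest, median, highest) and 1.86, 2.76 and 3.4 CPM at 6 weeks. The control at 3.19 CPM was the fourth mouse, and without control mice 1 or 3 or the first 6-week mouse the adjusted P was between 0.051 and 0.0563, with a log2 fold change between 1.09 and 1.14. Without the fourth control mouse the log2 fold change was 1.98 (adjusted P = 0.000146, edgeR), and with log2(TPM + 0.1) and all mice it was 1.85. Mgst3, a microsomal glutathione transferase of the same protein family as Ltc4s and Alox5ap, moved the other way. It fell by 0.50 on the log2 scale at 2 weeks (SE 0.0888, adjusted P = 0.00393, edgeR) and by 0.47 at 6 weeks (SE 0.0888, adjusted P = 0.000803), from 258.8 ± 34.6 CPM in controls to 182.9 ± 13.4 and 187.2 ± 20.5 CPM (SD, n = 6 each). With TPM the 6-week call of Mgst3 was lost.

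The other calls described from the list were small. Ptges2, an alternative prostaglandin E2 synthase, had a log2 fold change of -0.33 at 6 weeks (adjusted P = 0.0025, edgeR) and Fam213b, a prostamide and prostaglandin F synthase, -0.30 (adjusted P = 0.0304). Ptgr2, a reductase that breaks down prostaglandins, had -0.37 at 6 weeks (adjusted P = 8.2e-05, edgeR) and -0.20 between 2 and 6 weeks (adjusted P = 0.0361). With TPM the sign at 6 weeks turned for Ptgr2, to 0.14, and Fam213b, to 0.08, and the call of Ptges2 was lost. Of these 4 calls, 2 were lost when 1 mouse was left out. The call of Fam213b was lost without any 1 of 8 mice, controls 1, 2, 3 and 6 and 6-week mice 3, 4, 5 and 6 (log2 -0.30 to -0.26, adjusted P 0.0547 to 0.0745). That of Ptgr2 between the times was lost without any 1 of 9 mice, 2-week mice 2, 3, 4 and 6 and 6-week mice 1, 2, 3, 5 and 6 (log2 -0.21 to -0.18, adjusted P 0.0518 to 0.0805). It was also lost with library size only, without the filter, with either TPM pseudocount and with the replicate block. Over all alternatives this log2 fold change ran from -0.22 to -0.02.

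**Figure D4:**
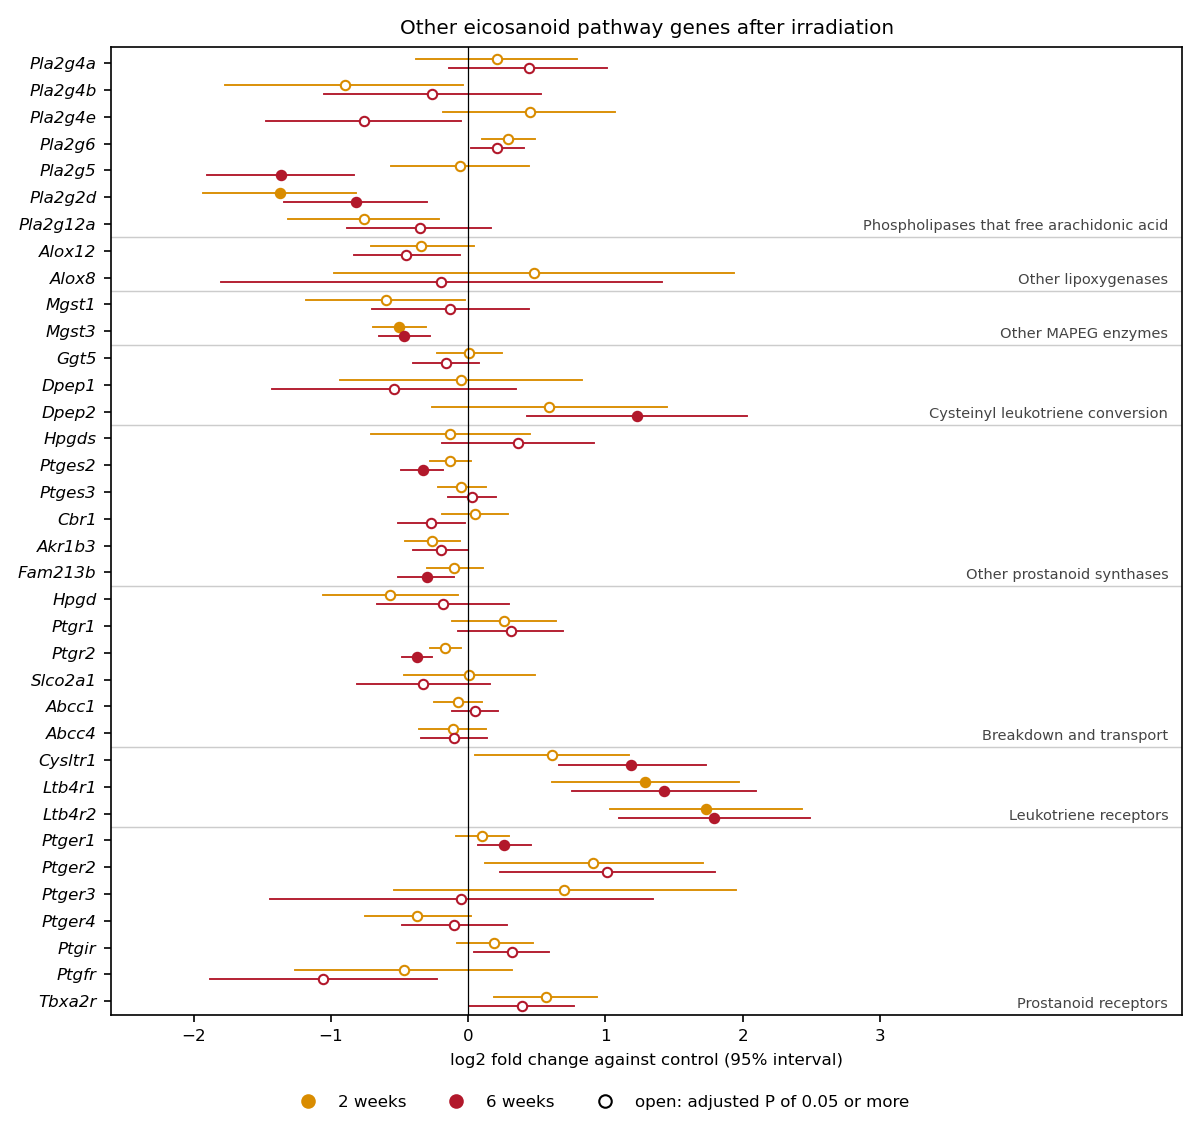
Fitted log2 fold change against controls of the 36 other eicosanoid pathway genes that passed the filter, grouped by role, at 2 and 6 weeks, with 95% intervals; filled points have an adjusted P under 0.05. The 3 leukotriene receptors lie to the right of 0 at 6 weeks (1.19, 1.43 and 1.79), and Pla2g5 (-1.36) and Pla2g2d (-0.82) to the left.

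Most macrophage markers were also higher at 6 weeks. The summed level of 8 markers (Adgre1, Cd68, Csf1r, Lyz2, Cd163, Mrc1, C1qa and Fcgr1) was 100.5 to 357.5 TPM in controls (median 156.5), 238.9 to 315.1 TPM at 2 weeks (median 283.9) and 370.2 to 528.8 TPM at 6 weeks (median 432.5). At 2 weeks 1 of the 8 was higher, C1qa by 0.58 (log2, adjusted P = 0.0272, edgeR), and at 6 weeks 6 were higher and Cd163, a marker of resident macrophages, was lower (log2 -0.98, adjusted P = 0.00977). Over all genes tested, 3.09% were higher at 2 weeks, and 13.5% were higher and 11.5% lower at 6 weeks. Between 2 and 6 weeks the median of the sum was higher and that of Ltc4s lower. Most of the sum came from Lyz2, with medians of 100.5, 188.5 and 292.8 TPM in the 3 groups, so ratios to the sum rest mainly on that gene. Per 100 TPM of macrophage markers, Ltc4s had 1.79 to 3.99 TPM in controls, 5.74 to 13.2 at 2 weeks and 3.68 to 5.21 at 6 weeks. By this ratio the 2-week mice lay above both other groups, and the 6-week mice overlapped with the controls. For Tbxas1 the ratio was 0.494 to 0.865 in controls, 0.887 to 1.48 at 2 weeks and 0.659 to 1.23 at 6 weeks, again above the controls at 2 weeks only without overlap. For Alox5ap all 3 groups overlapped, with medians of 2.74, 2.13 and 2.71. The part of macrophage number in these levels was not tested.

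**Figure D5:**
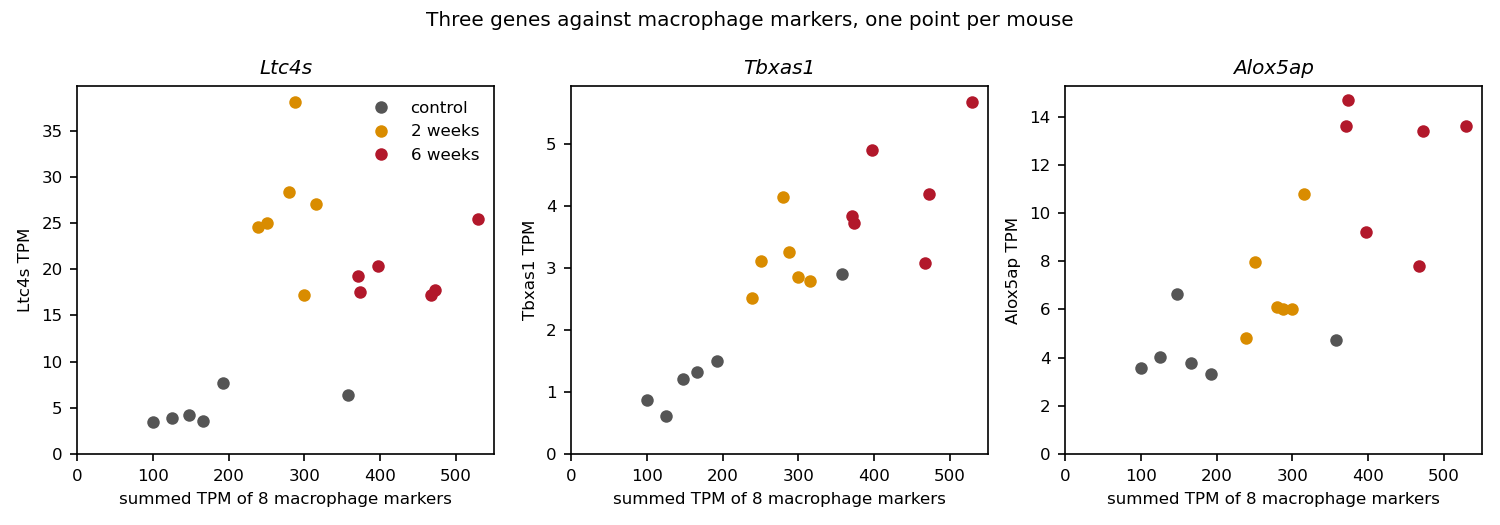
Level of Ltc4s, Tbxas1 and Alox5ap (vertical axes, TPM) against the summed TPM of 8 macrophage markers (horizontal axis), 1 point per mouse, coloured by group. The 2-week mice have more Ltc4s (17.2 to 38.1 TPM) than the fourth control mouse (6.41 TPM). For Tbxas1 the same control, at 2.90 TPM, lies within the 2-week range of 2.51 to 4.15 TPM. For Alox5ap it lies at 4.74 TPM, just under the 2-week range of 4.83 to 10.8 TPM. The macrophage sum of that control was 357.5 TPM against 238.9 to 315.1 TPM at 2 weeks, and the 6-week mice have the highest macrophage sums.

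The other marker lists stand for the remaining cells of the tissue. Of 8 mast cell markers, 4 passed the filter and only Kit was higher at 6 weeks, while Fcer1a had no count in any mouse. The sum of the 8 was 2.58 to 5.72 TPM in controls, 3.08 to 5.8 at 2 weeks and 5.31 to 8.14 at 6 weeks. Kit was its largest part, with medians of 1.83, 2.65 and 3.78 TPM. Sums in TPM also carry the shift of all genes on that scale, a median log2 difference of 0.286 at 6 weeks with TPM + 1. None of the 4 eosinophil markers passed the filter, and their sum was at most 0.569 TPM in any mouse. Of 5 neutrophil markers 2 passed the filter. At 6 weeks Csf3r was higher (log2 1.28), while S100a9 pointed the other way and was not called (log2 -0.91). None of the 4 platelet markers that passed, of 5, was called in any comparison, and their sum was 15.3 to 34.6 TPM in controls, 23.8 to 36.1 at 2 weeks and 27.2 to 44.9 at 6 weeks. Of the 4 lymphocyte markers, 2 were higher at 6 weeks, Cd8a and Cd79a. Both were sparse, with medians of 2 and 3 estimated counts in controls and 6.5 and 10 at 6 weeks. Of 5 endothelial markers, 1 was higher and 1 lower at 2 weeks and 2 were higher and 2 lower at 6 weeks. Of 5 fibroblast markers, 1 was lower at each time, and of 5 smooth muscle and pericyte markers none was called. Of 4 mesothelial markers, Wt1 was higher at 6 weeks (log2 0.67). The others were not called against controls at 6 weeks: Msln (-1.54), Upk3b (-1.44) and Krt19 (0.47). All 5 cardiomyocyte markers were lower in CPM at 6 weeks, with log2 fold changes from -0.61 to -0.41. Their sum in TPM was 18831.2 to 28902.4 in controls and 21983.5 to 24198.5 at 6 weeks, so these groups overlapped. All calls of markers rest on CPM. Over all genes tested, 3.09% were higher and 1.93% lower at 2 weeks, and 13.5% were higher and 11.5% lower at 6 weeks.

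Genes whose pattern over the 18 mice was most like that of Ltc4s were found by the root mean square difference of standardized log2 CPM, where 0 is identity, over 12868 genes with a mean of at least 1 CPM. The nearest was Ces2e, a carboxylesterase, with a difference of 0.262 against a median of 1.43 over all genes, and with median levels of 2.82, 14.2 and 8.93 CPM in the 3 groups. It was followed by Sesn2 (0.347), a stress-induced sestrin, Gas6 (0.374), a ligand of TAM receptors, Eda2r (0.378), a receptor of the TNF family, and Gm10800 (0.39), a predicted gene whose reads may be shared with related copies. For Alox5ap the nearest were the pseudogene Rbpj-ps3 (0.473), whose reads are uncertain because of its parent gene, Cndp2 (0.482) and Gm4841 (0.587), and for Tbxas1 they were Plekhg1 (0.313), Clic1 (0.358) and Ppm1f (0.361). All mice, libraries and groups are shared by these comparisons, which describe likeness only.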

How the data were processed

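RNA from 18 mouse hearts was sequenced, and each mouse was taken as 1 replicate. The authors aligned reads to GRCm38 with STAR, quantified transcripts with Salmon (1.0 in the submitters' notes, with CASAVA 1.8) and summed them to genes with tximport. The values the authors deposited are estimated counts, fractional and without scaling between libraries, and TPM, which correct for transcript length and for depth. TPM served for levels between genes and for alternatives.

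After rounding, the estimated counts were fitted with edgeR 4.0.16 (R 4.3.3) in 1 model of 3 groups over all 18 mice. A gene needed 0.23 CPM or more in 6 mice or more. TMM factors scaled the libraries, and groups were compared with the two-sided quasi-likelihood F test, with Benjamini-Hochberg adjustment over 15054 genes and a call at an adjusted P under 0.05. SE is the absolute log2 fold change over the square root of F. Intervals cover the spread between these mice only, and the floor of 3 counts covers counting error only.

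The members and lists were chosen with earlier results of these data known. The text names all 10 members, pathway genes called in any comparison, and the genes nearest to Ltc4s (5) and to each other called member (3); pathway genes below the filter were named outside this rule, and 1 called pathway gene that is counted is not reported here by its values. Symbols (29301 genes, 771 without) and coordinates are those of GENCODE M21. On simulated counts for 6 weeks against control, over 14622 genes, 184 of 200 changed genes were found with 10 false calls. The changed genes had more counts than the leukotriene B4 receptors, and larger changes than Mgst3, Ptges2, Fam213b and Ptgr2. Recovery of sparse genes or small changes was not tested. Alternatives used DESeq2 1.42.0, limma 3.58.1 voom, other scalings and filters, TPM with pseudocounts 1 and 0.1, a replicate block, and each mouse left out.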

Additional observations from a re-analysis of the deposited data

Results flagged for a closer look

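In 66 groups of 6 mice, 1 mouse stood apart from the others by Dixon's criterion in 7; chance gives about 1 such flag in 20 groups. The fifth mice of both irradiated groups accounted for most flags. The fifth 6-week mouse had the highest Alox5 level of its group, 7.08 CPM, and the highest Ptgs2 level, 7.48 CPM. The fifth 2-week mouse had the highest Ptgs2 level of its group, 2.39 CPM, and the highest Ptgis level, 30.2 CPM. The second control mouse had the highest control level of Alox5ap, 5.25 CPM, the fourth control mouse that of Dpep2, 3.19 CPM, and the first 2-week mouse the highest 2-week level of Pla2g4e, 8.22 CPM.

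The irradiated groups differed between 6 and 2 weeks, by edgeR, for Pla2g5 (log2 -1.30), Pla2g4e (-1.21) and Ptgr2 (-0.20). In CPM all 6 of the 6-week mice lay below every 2-week mouse for each gene, while in TPM the ranges overlapped. The calls of Pla2g4e and Ptgr2 were lost in 10 and 14 of 30 alternatives. The only control group has no time after sham treatment in its labels, so time after the dose and age at collection cannot be told apart. The causes were not tested.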

How the results depend on the processing

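The calls of Tbxas1 at both times and of Alox5ap at 6 weeks held in all 30 alternatives, with log2 fold changes of 0.82 to 1.32, 1.16 to 1.66 and 0.95 to 1.45. The number of the 9 members called at 2 weeks, 1, became 2 with DESeq2, the replicate block, TPM + 1 and TPM + 0.1. At 6 weeks it was 4 in place of 2 with library size only and with either TPM pseudocount. Between the times it was 1 in place of 0 with DESeq2, voom quality weights, TPM + 0.1 and the replicate block, and 2 with library size only and TPM + 1. Of the pathway genes, 7 in place of 4 were called at 2 weeks with DESeq2, 9 with TPM + 1 and 11 with TPM + 0.1; at 6 weeks 5 in place of 11 with an absolute log2 fold change above 1; between the times 1 in place of 3 with either TPM pseudocount and the replicate block. Without 1 mouse, member counts ranged from 1 to 2 (2 without the fifth 6-week mouse, which adds Ptgds), 2 to 2 and 0 to 1 (1 without the fifth 2-week mouse, which adds Alox5ap), and pathway counts from 3 to 6, 8 to 12 and 1 to 3.

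With library size only, TPM + 1 and TPM + 0.1 all genes had a median difference of 0.148, 0.178 and 0.239 (log2) at 2 weeks, 0.243, 0.286 and 0.369 at 6 weeks and 0.111, 0.115 and 0.147 between the times, against -0.0015, -0.019 and -0.00075 with the main scaling. In that order they turned the sign of Ptgs1 at 6 weeks (0.17, 0.10, 0.11), Ptgs2 at 2 weeks (0.10, 0.08, 0.35), Ptgds at 6 weeks (0.22, 0.21, 0.21), and Ptges at 2 weeks (0.04 in each), 6 weeks (0.10, 0.20, 0.26) and between the times (0.06, 0.16, 0.22); none of these was called. Voom with and without weights also turned Ptgs2 at 2 weeks (0.24). TPM turned Ptgr2 (0.14) and Fam213b (0.08) at 6 weeks. Leaving out 1 mouse gave either sign for Alox5 (-0.05 to 0.16), Lta4h (-0.02 to 0.05), Ptgs2 (-0.32 to 0.24), Ptgis (-0.09 to 0.15) and Ptges (-0.19 to 0.01) at 2 weeks, Ptgis (-0.03 to 0.18) and Ptgds (-0.36 to 0.13) at 6 weeks, and Ptgis (-0.08 to 0.17) and Ptges (-0.25 to 0.05) between the times. The causes were not tested.

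No pairing of the mice by replicate number was detected. Correlations of deviations between same-numbered mice ran from -0.0828 to 0.106, 2 of 18 pairs exceeded 0.1, and 3 of 18 mice matched their own number best. Low correlations cannot show that same-numbered mice did not share a litter or handling, which the labels do not give. With the replicate block, Ptgds passed at 2 weeks (-1.16, adjusted P = 0.0214, edgeR) and between the times (1.02, adjusted P = 0.0397). Depth limits Ptgs2 and the leukotriene B4 receptors, with few counts per mouse.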
